A study of Mus musculus with 6 samples.

Results

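Langerhans cells are the antigen-presenting cells of the epidermis, and 10 genes that mark them, the MHC class II pathway or leukocytes in general were followed through 6 RNA libraries of sorted mouse keratinocytes. The 10 genes were chosen by symbol (Cd207, Cd74, H2-Aa, H2-Ab1, H2-Eb1, Ciita, Ptprc, Cd52, Tyrobp and Fcer1g), and all 10 were found among the 24982 rows of the count matrix. The libraries came from 3 mice, numbered 890, 892 and 899. Each mouse gave 1 denervated library, from the left back skin 4 weeks after its cutaneous nerves had been dissected out, and 1 normal library, from the right back skin with its nerves in place. All mice carried an Lgr6-EGFP-Ires-CreERT2 allele and an R26loxP-stop-loxP-tdTom reporter and had received 20 µg of tamoxifen on postnatal day 42, so that tdTomato marks cells in which the Lgr6 promoter was active at that time and their descendants. Tomato-positive cells were stained for CD49f (integrin alpha 6, which anchors basal keratinocytes) and sorted, and the labels mention neither a leukocyte stain nor a sham dissection of the right side, and therefore denervation, the operation and the side of the body cannot be told apart.

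As background, MHC class II molecules show peptides from engulfed proteins to helper T cells. Each is a pair of an alpha and a beta chain, which assemble on the invariant chain Cd74 and exchange it for peptide in endosomes. Ciita is the coactivator that switches the whole set on, without binding DNA itself. It docks on factors bound to the X and Y boxes in front of these genes. In resting epidermis Langerhans cells are the main class II-positive cells. Keratinocytes can make class II molecules after exposure to interferon gamma. Cd207 (langerin) is the lectin that forms Birbeck granules, Ptprc (CD45) is the phosphatase found on all nucleated blood cells, Cd52 is a small surface peptide of leukocytes, and Tyrobp (DAP12) and Fcer1g are signalling adaptors of myeloid and natural killer receptors, with Fcer1g also part of Fc receptors.

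The matrix totals were 9610071, 14021730 and 13232950 counts in the denervated libraries of animals 890, 892 and 899, against 26167593, 20724439 and 13801154 in the normal ones, and 3 counts, taken as the floor for counting error only, were worth 0.115 to 0.312 CPM (counts scaled to a common library size). The sorted cells carried their label's markers. Of 7 keratinocyte genes (Krt5, Krt14, Itga6, Itgb4, Col17a1, Trp63 and Lgr6), all 7 were tested and none passed the comparison of the sides, where 3.46% of all tested genes did. Their sum was 40326 to 46283 CPM in the denervated and 41890 to 42489 CPM in the normal libraries. Krt5 and Krt14, the keratins of the basal layer, averaged 16492 and 18632 TPM (abundance scaled for length and library size) over the 6 libraries.

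Of the 10 genes, 5 (Cd207, H2-Aa, H2-Eb1, Ptprc and Fcer1g) have an entry in the RefSeq promoter table (GRCm38.p6). The stretch from 110 to 31 bases before the start is shown for H2-Aa and H2-Eb1. Both parted more between animals in level than H2-Ab1, the other class II chain gene of the 10. The same stretch is shown for H2-DMb1, which encodes a chain of the peptide exchanger H2-DM, and for H2-Ob, which encodes a chain of the modulator H2-O. Capitals mark TGATTGG, which holds the inverted CCAAT core of the Y box.
H2-Aa, chr17:34287854-34287933, minus strand: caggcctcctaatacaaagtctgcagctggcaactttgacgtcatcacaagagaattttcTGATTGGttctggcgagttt
H2-Eb1, chr17:34305757-34305836, plus strand: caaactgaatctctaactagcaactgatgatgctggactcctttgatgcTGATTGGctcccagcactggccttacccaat
H2-DMb1, chr17:34153081-34153160, plus strand: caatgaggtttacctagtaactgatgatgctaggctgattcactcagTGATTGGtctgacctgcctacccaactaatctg
H2-Ob, chr17:34238795-34238874, plus strand: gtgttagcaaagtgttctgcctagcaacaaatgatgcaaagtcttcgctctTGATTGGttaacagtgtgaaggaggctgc
The motif began 50 bases before the start of H2-Aa, 61 before that of H2-Eb1, 63 before that of H2-DMb1 and 59 before that of H2-Ob. Searched on both strands (TGATTGG or CCAATCA), it was in 4.03% of the same window over 32817 promoters. It was not in this window of Cd207, Ptprc or Fcer1g, nor in that of either promoter of H2-DMa, which encodes the other chain of H2-DM. The 4 sequences shown were thus picked among those that hold it. These are reference sequences, and the mice's own alleles were not analysed here.

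Per length, Cd74, H2-Aa and H2-Ab1 were the most abundant of the 10 genes on average. H2-Eb1 was above the adaptor genes Tyrobp and Fcer1g in animals 890 and 892 and below both in the libraries of animal 899. Over the 6 libraries Cd74 averaged 95.4 ± 20.0 TPM (SD, 6 libraries from 3 animals), followed by H2-Aa at 69.2 ± 19.9, H2-Ab1 at 45.0 ± 7.11, H2-Eb1 at 20.5 ± 18.6 and Cd207 at 20.3 ± 5.38 TPM. Below them came Cd52 at 4.99 ± 1.97, Tyrobp at 3.34 ± 1.37, Fcer1g at 2.26 ± 0.838, Ptprc at 0.720 ± 0.108 and Ciita at 0.240 ± 0.102 TPM. Cd74 exceeded H2-Aa, and H2-Aa exceeded H2-Ab1, in 6 of 6 libraries, although their ranges overlapped. H2-Eb1 and Cd207 could not be ordered, since H2-Eb1 was the higher in 3 of 6 libraries. The lowest Cd207 value, 14.0 TPM, lay above the highest Cd52 value, 7.29 TPM. All 10 genes together made up 0.0175 to 0.0313% of TPM. In bulk RNA, fewer cells of a type and less RNA per cell cannot be told apart.

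None of the 10 genes passed the comparison of denervated with normal skin. In edgeR's quasi-likelihood test with the animal as a block, 9 of the 10 genes passed the filter on low counts and 0 were called at an adjusted p below 0.05, where 3.46% of all 12310 tested genes were called, 2.88% as higher and 0.577% as lower. Scaled by library totals, 172 genes were called as higher and 118 as lower, against 355 and 71 with TMM, and still none of the 9. At an unadjusted p below 0.05 there was 1, Cd74, against 18.2% of all tested genes. DESeq2 with the block gave an adjusted p for Cd74 (0.214) and H2-Aa (0.417) alone and called neither, where it called 492 genes in all. The estimated counts (3.20% of genes called) gave no call among the 10. Neither did limma on log2 TPM, which called 1 gene in all with a pseudocount of 1 and 0 with 0.1. The fitted log2 fold change was positive for 8 of the 9, with a median of 0.28, against a median of −0.02 and 45.3% positive over all tested genes. Without animal 892 the median of the 9 was 0.11 and 7 were positive.

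**Figure D1:**
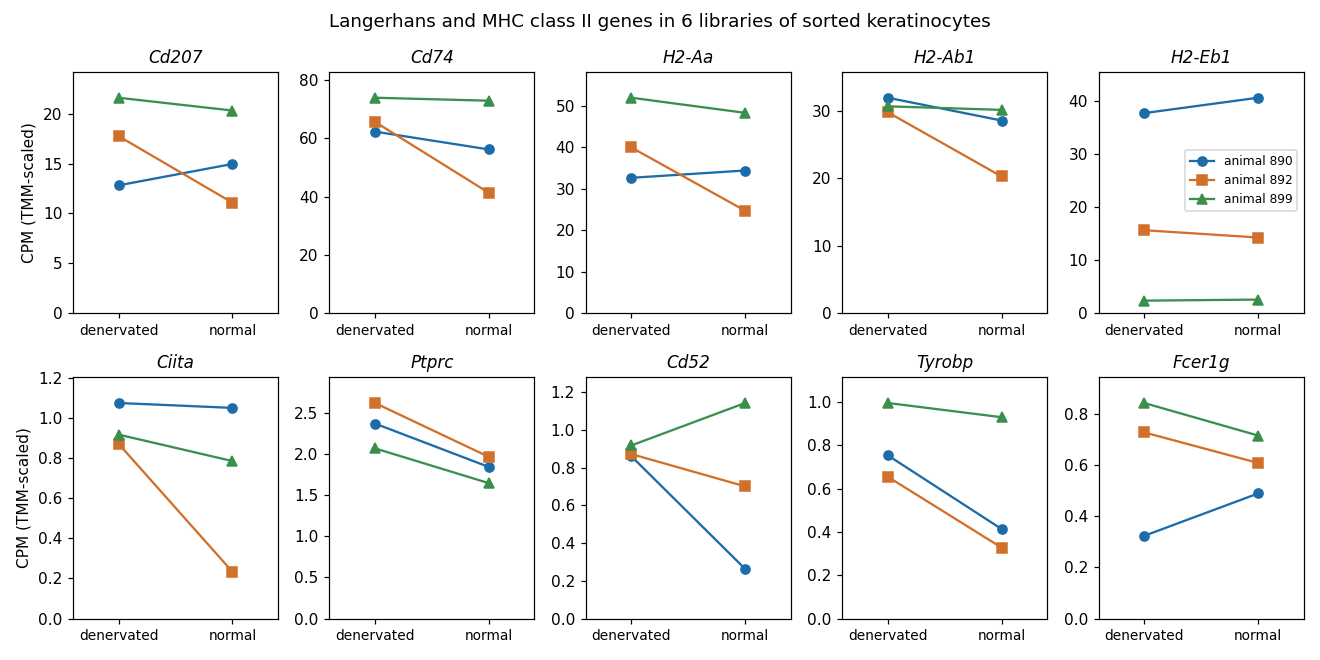
Level of each of the 10 genes (y axis, TMM-scaled CPM, linear from 0) in the denervated and the normal library of each animal, with a line joining the sides of 1 animal. Cd74, H2-Aa and Cd207 had their lowest value in the normal library of animal 892 and their highest in the denervated library of animal 899, whereas H2-Eb1 separated by animal, from 2.37 to 40.6 CPM.

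Cd74 (chromosome 18, 60803848 to 60812652, plus strand, mm10), the invariant chain and chaperone of class II molecules, had 62.3, 65.7 and 74.0 CPM in the denervated libraries of animals 890, 892 and 899, against 56.2, 41.3 and 72.9 CPM in the normal libraries. With TMM scaling the denervated side was the higher in 3 of 3 animals, and the ranges of the sides overlapped. Animal 892 had a log2 ratio of 0.67, against 0.15 for animal 890 and 0.02 for animal 899, so that the low normal library of animal 892 weighed most. The fitted log2 fold change was 0.28 ± 0.11 SE (adjusted p = 0.198, edgeR). In the authors' deposited table the log2 fold change was 0.28 with an adjusted p of 0.246. Cd74 was called with no filter on low counts (log2 fold change 0.28, adjusted p = 0.0442, with 5.70% of genes called) and when animal 890 was left out (0.34, adjusted p = 0.0381, edgeR, with 3.11% of genes called) or animal 899 (0.41, adjusted p = 0.0303, with 7.74% called). Leaving out animal 892 gave 0.10, an adjusted p of 0.864 and 2.01% of genes called.

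H2-Aa (chromosome 17, 34282744 to 34287823, minus strand) and H2-Ab1 (chromosome 17, 34257689 to 34269419, plus strand) encode the alpha and beta chains of the I-A molecule. H2-Aa had 32.6, 39.9 and 51.9 CPM in the denervated libraries of animals 890, 892 and 899, against 34.4, 24.7 and 48.3 CPM in the normal ones. Animal 890 was lower on its denervated side, whereas animals 892 and 899 were higher there. EdgeR fitted a log2 fold change of 0.24 ± 0.13 SE (adjusted p = 0.340), and with animal 890 left out H2-Aa was called at 0.39 (adjusted p = 0.0381, edgeR). Without animal 892 it stood at 0.034 (adjusted p = 0.967, edgeR). H2-Ab1 had 32.0, 29.8 and 30.7 CPM in the denervated libraries, against 28.6, 20.3 and 30.2 CPM in the normal ones. Its denervated libraries lay close together, and the normal library of animal 892 stood below all the others. Its log2 fold change was 0.25 ± 0.12 SE (adjusted p = 0.289, edgeR), and 0.11 without animal 892 (adjusted p = 0.881).

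Cd207 (chromosome 6, 83671215 to 83677857, minus strand), the gene that defines Langerhans cells in this tissue, had 12.8, 17.7 and 21.6 CPM in the denervated libraries of animals 890, 892 and 899, against 15.0, 11.1 and 20.3 CPM in the normal ones. The sides overlapped, and only animal 890 was lower on its denervated side. Cd207 had a log2 fold change of 0.19 ± 0.16 SE (adjusted p = 0.580, edgeR), and it changed sign without animal 892 (−0.04).

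H2-Eb1 (chromosome 17, 34305867 to 34316674, plus strand), the beta chain gene of the other class II molecule, I-E, separated by animal. It had 37.7, 15.6 and 2.37 CPM in the denervated libraries of animals 890, 892 and 899, against 40.6, 14.3 and 2.57 CPM in the normal ones. In counts these were 350, 215 and 31 in the denervated libraries, against 1080, 305 and 36 in the normal libraries. Both libraries of animal 890 were high, both of animal 892 intermediate and both of animal 899 low, a 17.1-fold range over the 6 libraries, while the sides of 1 animal differed by a log2 ratio of at most 0.13. Between sides the log2 fold change was −0.01 ± 0.14 SE (adjusted p = 0.970, edgeR).

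A test of the animal term in the same model was added after these values were seen. It called H2-Eb1 with an adjusted p of 2.33e-07 (edgeR), the rank 2 of all tested genes by p, where 3.78% of tested genes were called. On log2 CPM the animal means of H2-Eb1 spanned 3.92, against a median of 0.23 over all tested genes, and 18 tested genes spanned more. H2-Aa was called as well, at an adjusted p of 0.0440, and not with library totals (0.0504) or with the estimated counts (0.0651). With no filter on low counts, the animal term also called Cd74 (adjusted p = 0.00239, edgeR) and Cd207 (0.0146), where it called 6.11% of genes. With the filter the other 7 tested genes were not called, with adjusted p of 0.130 for Cd74, 0.190 for Cd207 and 0.422 for H2-Ab1. The same contrast stood in the authors' transcript quantification, where H2-Eb1 had 40.3, 16.7 and 2.62 TPM in the denervated libraries, against 45.8, 15.2 and 2.34 TPM in the normal ones.

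Close to H2-Eb1 on chromosome 17, H2-Ea-ps went the other way by animal. H2-Ea-ps (34341959 to 34344645, minus strand), annotated as a polymorphic pseudogene of the I-E alpha chain and named after its values were seen, had 0, 11 and 36 counts in the denervated libraries of animals 890, 892 and 899, against 0, 19 and 39 in the normal ones. The 0 counts in animal 890 allow up to 0.312 CPM in its denervated and 0.115 CPM in its normal library, while animal 899 had 2.76 and 2.79 CPM (adjusted p of the animal term 0.00235, edgeR). H2-Ob, a chain of the modulator H2-O, had 0, 6 and 15 counts in the denervated libraries, against 0, 1 and 20 in the normal ones, and was too low for the test. H2-DMb2, a chain of the peptide exchanger H2-DM, had 1.29, 1.89 and 2.37 CPM in the denervated libraries, against 0.301, 1.87 and 2.65 CPM in the normal ones (adjusted p of the animal term 0.189, edgeR). H2-Ob and H2-DMb2 were likewise picked for their values, and no test places them with H2-Ea-ps. Within 2 Mb on either side of H2-Eb1, 16 of 137 tested neighbours (11.7%) were called for the animal, against 3.78% of all tested genes. These include H2-Aa and H2-Ea-ps, whose calls are given above, and H2-Eb1 itself was singled out for its difference between animals. The counts were 8 of 83 around Cd52 (9.64%), 3 of 39 around Cd207 (7.69%), 1 of 22 around Ciita (4.55%), 0 of 75 around Tyrobp, 0 of 23 around Cd74 and 0 of 13 around Ptprc. Genotypes and strain backgrounds of the 3 mice were not analysed here. Gm20513 is annotated antisense to H2-Eb1, and since the strand setting of the counting is not given in the sources used here, reads of the pair could not be told apart.

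**Figure D2:**
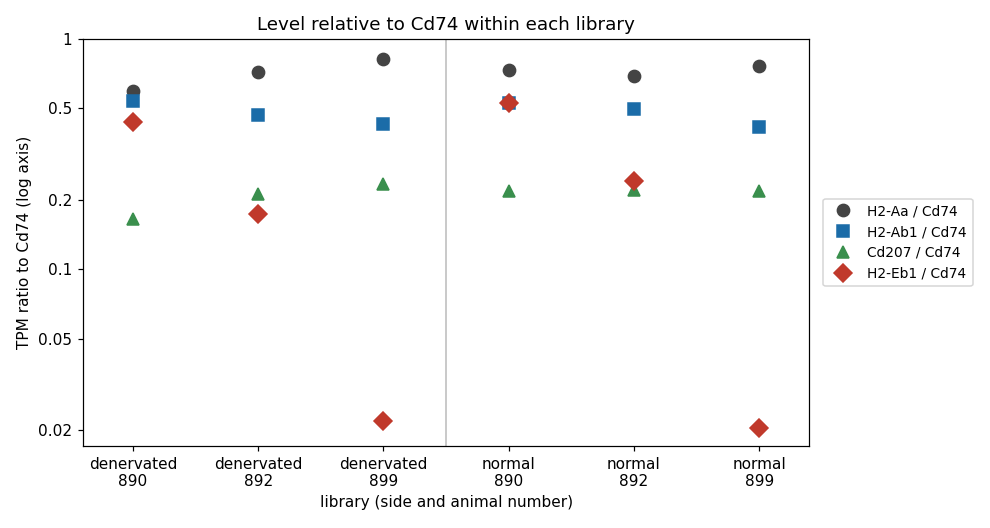
Ratio of TPM to that of Cd74 within each library (y axis, log scale) for H2-Aa, H2-Ab1, Cd207 and H2-Eb1, with the 3 denervated libraries left of the 3 normal ones. Ratios of H2-Aa, H2-Ab1 and Cd207 stayed within 1.42-fold, while that of H2-Eb1 ran from 0.0205 to 0.525. In the normal library of animal 890 the points of H2-Ab1 and H2-Eb1 coincide.

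Set against Cd74 in the same library, H2-Aa stood at 0.595 to 0.819, H2-Ab1 at 0.415 to 0.537 and Cd207 at 0.166 to 0.235 (ratios of TPM), so that each stayed within 1.42-fold relative to Cd74, while Cd74 itself ranged 1.88-fold in TPM. H2-Ab1 over H2-Aa varied more, from 0.522 to 0.902. The steadiest pair of the 7 computed was Cd207 over H2-Aa. That ratio was 0.279, 0.296 and 0.287 in the denervated libraries of animals 890, 892 and 899, against 0.299, 0.322 and 0.289 in the normal ones. H2-Eb1 over Cd74 was 0.434, 0.173 and 0.0220 in the denervated libraries, against 0.525, 0.241 and 0.0205 in the normal ones, a 25.5-fold range.

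Cd74, H2-Aa, H2-Ab1 and Cd207, a grouping within the 10 genes that was not planned beforehand, had positive rank correlations in all 6 of their pairs. Their median Spearman's rho was 0.80 over the libraries, and it was not computed with an animal left out. The choice of these genes bears on that value. Of the 10 genes, 6 had their lowest CPM in the normal library of animal 892 (Cd207, Cd74, H2-Aa, H2-Ab1, Ciita and Tyrobp) and 5 their highest in the denervated library of animal 899 (Cd207, Cd74, H2-Aa, Tyrobp and Fcer1g). As a description over 6 libraries that come from 3 animals and differ in depth, Spearman's rho was 1.00 between Cd207 and H2-Aa, 0.94 between Cd74 and each of Cd207, H2-Aa and Tyrobp, and 0.89 between Cd74 and Cd52. H2-Ab1 followed Cd74 less closely, at 0.66. H2-Eb1 ran against most of them, with a median rho of −0.60 over its 8 pairs. Ptprc and Ciita each had a rho of 0.09 with Cd74. For Ciita the 2 measures parted, since its Pearson r on log2 CPM was 0.78 with Cd74 and 0.96 with H2-Ab1, against 0.05 for Ptprc with Cd74. The normal library of animal 892 was the lowest for Ciita, Cd74 and H2-Ab1 alike. There Ciita had 5 counts (0.234 CPM), against 0.786 to 1.08 CPM in the other libraries, and r without this library was not computed. Cd52 had a Pearson r of 0.45 with Cd74, below its rho. Over the 36 pairs of tested genes the median was 0.31 and 26 were positive (72.2%), against a median of 0.03 and 50.1% positive over all pairs of the 12310 tested genes. Without H2-Eb1 the median was 0.49, and 24 of 28 pairs were positive. The median over the 36 pairs was 0.14 with library totals, 0 without animal 892, 0.4 without animal 899 and 0.8 without animal 890, so that it depends on the libraries used.

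**Figure D3:**
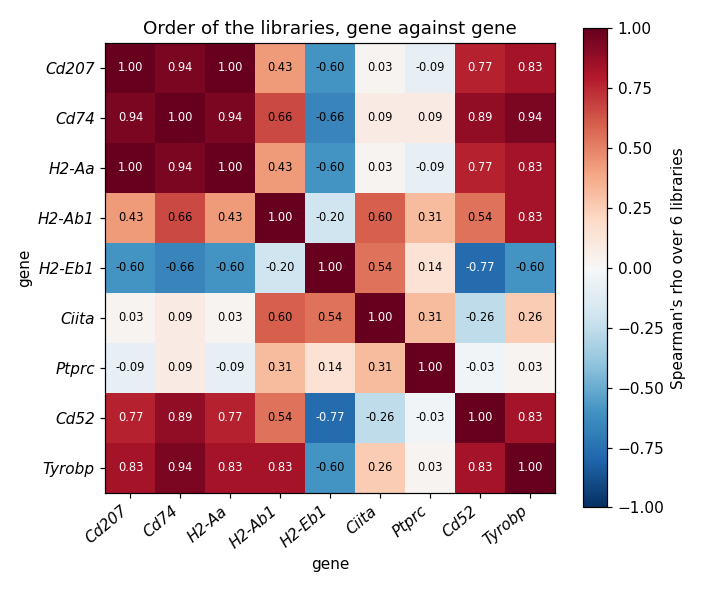
Spearman's rho over the 6 libraries (colour and printed value) between each pair of the 9 tested genes, on log2 CPM. Cd207, Cd74, H2-Aa, Cd52 and Tyrobp form a block of 0.77 or above in ranks (Pearson r of Cd52 was 0.37 with Cd207, 0.45 with Cd74 and 0.42 with H2-Aa, from 7 to 16 counts per library), and H2-Eb1 is negative with 6 of the other 8.

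Genes outside the list that shared the pattern were chosen by a rule on likeness alone. With the mean log2 CPM of the 9 tested genes, the highest Pearson r over 6 libraries were those of Eif4ebp3 (0.98), Cox18 (0.98), Upf3a (0.98), Atf5 (0.98), Fam84a (0.97), Atp2a2 (0.97), Rangap1 (0.97) and Myo1c (0.97). With Cd74 alone they were those of Atp11a (0.99), Zhx1 (0.99), Rptor (0.98), Spata13 (0.98), Cdc42bpb (0.98), Chml (0.97), Vim (0.97) and Ddx31 (0.97). Of 11470 candidate genes, 141 (1.23%) reached an r above 0.9 with Cd74. No gene of the leukocyte lists was among these 16, which are only the closest genes, and genes with a low mean CPM were not candidates. Their absence therefore does not show that leukocyte genes lack the pattern. Cytip of the leukocyte list and H2-DMa of the class II pathway, both picked for their values, ranked the 6 libraries in the same order as Cd207. Arhgdib and Ifi30 of the same lists did not, and how many genes of these lists do so was not counted.

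Ciita (chromosome 16, 10480059 to 10528418, plus strand) was close to the floor. It had 10, 12 and 12 counts in the denervated libraries of animals 890, 892 and 899, against 28, 5 and 11 in the normal ones, or 1.08, 0.873 and 0.919 CPM, against 1.05, 0.234 and 0.786 CPM. Only the normal library of animal 892 stood apart, with the sides overlapping otherwise. For Ciita edgeR fitted a log2 fold change of 0.59 ± 0.54 SE (adjusted p = 0.606), and 0.14 without animal 892 (adjusted p = 0.973). Ciita overlaps Dexi on the other strand, which had 106 to 442 counts per library, and whether its reads add to these few counts was not tested.

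Ptprc (chromosome 1, 138062861 to 138175708, minus strand) was the only 1 of the 10 genes whose sides did not overlap. It had 2.37, 2.62 and 2.07 CPM in the denervated libraries of animals 890, 892 and 899, against 1.84, 1.96 and 1.64 CPM in the normal ones, from 22, 36 and 27 counts, against 49, 42 and 23 counts. Of all tested genes, 19.0% did not overlap. The log2 differences were close to each other, at 0.36, 0.41 and 0.33, and the fitted value was 0.37 ± 0.34 SE (adjusted p = 0.613, edgeR). With TMM scaling, 5 of the 10 genes were higher after denervation in each of the 3 animals (Cd74, H2-Ab1, Ciita, Ptprc and Tyrobp), against 19.3% of all tested genes. This count depends on the scaling. The log2 ratio was only 0.020 for Cd74 and 0.025 for H2-Ab1 in animal 899, and 0.033 for Ciita in animal 890. Scaled by library totals, these ratios turn negative.

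The small leukocyte genes rested on few counts. Cd52 (chromosome 4, 134082448 to 134095082, minus strand, overlapping Crybg2 on the other strand) had 8, 12 and 12 counts in the denervated libraries of animals 890, 892 and 899, against 7, 15 and 16 in the normal ones, or 0.861, 0.873 and 0.919 CPM, against 0.263, 0.701 and 1.14 CPM. Crybg2 itself had 1919 to 3747 counts per library, and whether its reads add to Cd52 was not tested. Tyrobp (chromosome 7, 30413760 to 30417585, plus strand) had 7, 9 and 13 counts in the denervated libraries, against 11, 7 and 13 in the normal ones, or 0.754, 0.655 and 0.995 CPM, against 0.413, 0.327 and 0.929 CPM. The sides of Cd52 and of Tyrobp overlapped. Fcer1g (chromosome 1, 171229572 to 171234365, minus strand) had 3, 10 and 11 counts in the denervated libraries, against 13, 13 and 10 in the normal ones, or 0.323, 0.727 and 0.842 CPM, against 0.488, 0.608 and 0.715 CPM, and did not pass the filter. The fitted log2 fold changes were 0.44 ± 0.56 SE for Cd52 (adjusted p = 0.728, edgeR) and 0.60 ± 0.56 SE for Tyrobp (adjusted p = 0.613, edgeR). SEs of this size are close to or above the differences themselves, and no difference was detectable at this depth.

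**Figure D4:**
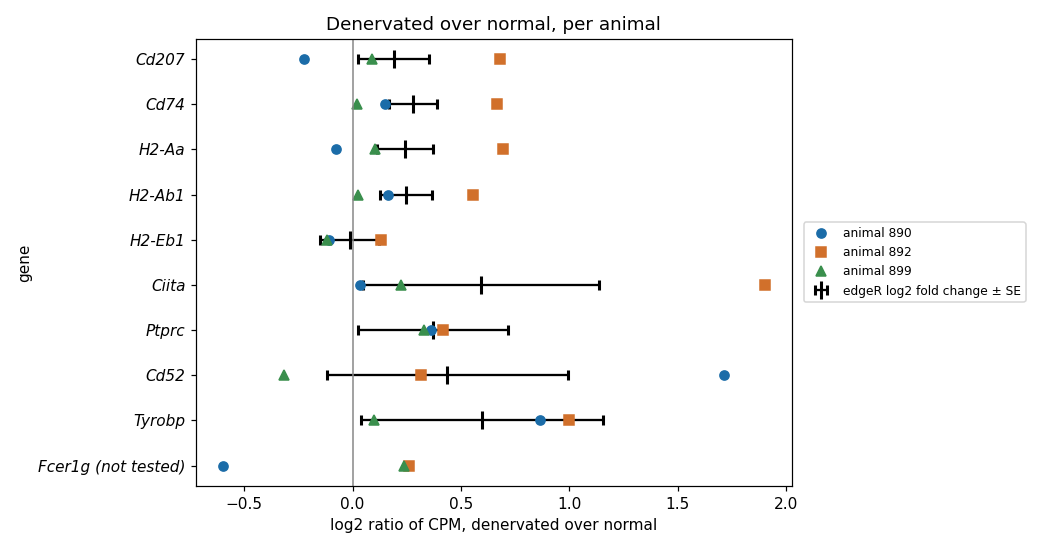
Log2 ratio of CPM, denervated over normal (x axis), in each animal (points) for the 10 genes, with the fitted log2 fold change ± SE from edgeR (black) for the 9 that were tested. In animal 892 Cd74, H2-Aa, H2-Ab1 and Cd207 stand between 0.56 and 0.69, and in animal 899 between 0.02 and 0.10.

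Summed over the 10 genes, the level was 183, 175 and 186 CPM in the denervated libraries of animals 890, 892 and 899, against 179, 115 and 179 CPM in the normal ones. In this sum only the normal library of animal 892 stood apart. Animal 892 gave a log2 ratio of 0.60, against 0.03 in animal 890 and 0.05 in animal 899. H2-Eb1, which ran against most of the other genes, evens out the animals in this sum. Without H2-Eb1 it was 145, 159 and 184 CPM in the denervated libraries, against 138, 101 and 177 CPM in the normal ones. Both libraries of animal 899 were then the highest. For all 10 genes the mean log2 ratio was 0.23, and 0.04 without animal 892. Ptprc, Cd52, Tyrobp and Fcer1g together had 4.31, 4.87 and 4.82 CPM in the denervated libraries, against 3.01, 3.60 and 4.43 CPM in the normal ones.

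No other gene of the class II pathway passed the comparison of the sides. Of its 20 other genes in the matrix (peptide loading, proteases, promoter factors and costimulators), 15 were tested and none passed, where 3.46% of all tested genes did. Of the 15, 10 had a positive log2 fold change, with a median of 0.11, against 45.3% positive and a median of −0.02 over all tested genes. The smallest p were those of the endosomal protease gene Ctsl (0.20 ± 0.07 SE, adjusted p = 0.152, edgeR) and of Rfx5, which binds the X box (0.19 ± 0.11 SE, adjusted p = 0.366). H2-Eb2 had 0 counts in all libraries. The promoter factor genes are not specific to leukocytes, and Creb1, named after its values were seen, averaged 100 ± 9.69 CPM in denervated and 94.7 ± 7.38 CPM in normal libraries (SD, n = 3 each).

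Among markers of immune cells beyond the 10 genes, none was called, where 3.46% of all tested genes were. Of 28 Langerhans and myeloid genes 16 were tested, with a median log2 fold change of 0.05, against −0.02 over all tested genes. Summed levels of the 28 were 363 to 456 CPM in the denervated and 354 to 379 CPM in the normal libraries. Cd24a (adjusted p = 0.246, edgeR) and Plek (0.282) had the smallest p, and Cd24a and the cathepsin gene Ctsh, the 2 most abundant, made up most of that sum. Cd24a, Ctsh and Sirpa averaged 208, 74.8 and 54.9 CPM over the 6 libraries, against 18.8 CPM or less for each other gene of this list. The sum therefore follows these genes and is no measure of myeloid cells. Clec10a and Cybb had 0 counts throughout, and Lyz2 of macrophages, also picked after its values were seen, 8 counts in all. Of 17 general leukocyte genes 8 were tested, and the 17 summed to 124 to 147 CPM in the denervated and 129 to 130 CPM in the normal libraries. Most came from Arhgdib and Ptpn6, which averaged 85.5 and 28.2 CPM over the 6 libraries, against 6.41 CPM or less for each other gene of this list. Coro1a and Lcp1 had the smallest p (adjusted p = 0.412 and 0.423, edgeR).

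T cells, which also live in mouse epidermis, express Ptprc and Cd52 too. Of 16 T cell genes 7 were tested, and the 16 summed to 100 to 167 CPM in the denervated and 113 to 135 CPM in the normal libraries. Most of it was Thy1, which averaged 117 CPM over the 6 libraries, against 2.19 CPM or less for each other T cell gene. The sum therefore follows Thy1 and is no measure of T cells. Thy1 was called for the animal (adjusted p = 0.0317, edgeR). Cd3e, a T cell receptor subunit, averaged 2.32 ± 0.720 CPM in denervated and 1.24 ± 0.366 CPM in normal libraries (SD, n = 3 each, adjusted p = 0.232, edgeR), and Gzmb had 0 counts. Cd7 was at 1.33 ± 0.479 CPM in denervated and 1.28 ± 0.274 CPM in normal libraries. None of 6 B cell genes was high enough for the test, with sums of 0.459 to 0.727 CPM in the denervated and 0.50 to 0.888 CPM in the normal libraries, mainly Cd79a. Cd79b and Ms4a1 had 0 counts. Of 8 mast cell genes only Kit was tested, Hdc came next, and Mcpt4, Tpsb2, Cma1, Ms4a2 and Fcer1a had 0 counts, with sums of 1.31 to 2.22 CPM in the denervated and 1.22 to 2.57 CPM in the normal libraries. Of 6 neutrophil genes only Cxcr2 was tested, Camp came next, and Ly6g, Csf3r, Retnlg and Ngp had 0 counts, with sums of 0.536 to 1.18 CPM in the denervated and 0.643 to 1.35 CPM in the normal libraries. What part these cells have in the levels of the 10 genes was not tested.

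Among 10 keratinocyte genes that act on Langerhans cells, Itgb6 rose. Its product pairs with integrin alpha v and releases active TGF-beta, which holds Langerhans cells in mouse epidermis. Itgb6 had 232, 131 and 202 CPM in the denervated libraries of animals 890, 892 and 899, against 121, 81.3 and 129 CPM in the normal ones. It was called as higher, as were 2.88% of all tested genes (log2 fold change 0.76 ± 0.08 SE, adjusted p = 0.00196, edgeR, and 0.201 without the block). Itgb6 was higher in 3 of 3 animals, as were 19.3% of all tested genes, and its sides narrowly did not overlap, as in 19.0%. It was also called for the animal (adjusted p = 0.0016, edgeR). Limma on log2(TPM + 1) did not call it (adjusted p = 0.331). The other 9 did not pass, with a median log2 fold change over the 10 of −0.02. Sums were 2256 to 2485 CPM in the denervated and 1895 to 2096 CPM in the normal libraries. Most of it was Cdh1, which averaged 1528 CPM over the 6 libraries, against 216 CPM or less for each other gene of this list. The sum therefore follows Cdh1 (adjusted p = 0.0527, edgeR) and is no measure of the list. Of the 10 genes, 5 had a positive log2 fold change, whereas Il34 had −0.29 (adjusted p = 0.0821, edgeR) and Csf1 −0.40 (0.177). These libraries show what the sorted cells expressed and hold no count of Langerhans cells in the skin.

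Of 12 genes of the interferon gamma pathway, which induces Ciita in many cells, 1 rose and 1 fell. The kinase gene Jak2 had 190, 156 and 150 CPM in the denervated libraries of animals 890, 892 and 899, against 128, 118 and 132 CPM in the normal ones (log2 fold change 0.39 ± 0.08 SE, adjusted p = 0.0252, edgeR). The transcription factor gene Irf1 had 250, 220 and 312 CPM in the denervated libraries, against 419, 323 and 330 CPM in the normal ones (log2 fold change −0.46 ± 0.11 SE, adjusted p = 0.0330, edgeR). Each moved 1 way in 3 of 3 animals without overlap between the sides. Of all tested genes, 19.0% did not overlap and 19.3% were higher in 3 of 3 animals, while the share that was lower is not given here. Jak2 and Irf1 were named because they were called, so this agreement adds no separate evidence. Without the block neither gene was called (adjusted p = 0.180 for Jak2 and 0.230 for Irf1, edgeR). Leaving out animal 890 (0.0526 for Jak2, 0.0571 for Irf1) or animal 892 (0.0583 and 0.0771) lost both calls, and DESeq2 did not call Irf1 (0.156). Jak2 was not called with library totals (0.0534), and limma on log2(TPM + 1) called neither (0.331 for Jak2 and 0.363 for Irf1). The median log2 fold change of the 12 was −0.19, against −0.02 over all tested genes, and sums were 3484 to 3634 CPM in the denervated and 3467 to 3576 CPM in the normal libraries.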

How the data were processed

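Sample titles gave the side and the animal, and the labels' protocols place both sides on 1 mouse, which pairs the libraries. Across genes, same-animal libraries deviated together from their group means (r of 0.356, 0.361 and 0.443). The deposited matrix holds raw counts per gene. Estimated counts, TPM and lengths stand in a deposited file for each sample, per the file headers, and a deposited table repeats the TPM. STAR 2.6.1a, Salmon 0.11.2 and mm10 appear in the submitters' processing notes, without roles, and the sources used here give neither the annotation nor the strand setting. The authors' deposited comparison holds log2 fold changes, p-values, mean normalised signal and a score (the Wald statistic and the standard error), and gives an adjusted p for 3 of the 10 genes.

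Counts were tested by quasi-likelihood in edgeR 4.0.16 (R 4.3.3) with the animal as block, scaling by TMM and the filterByExpr filter (at least 10 counts, 15 in total), adjusted by Benjamini-Hochberg over all 12310 tested genes and called below 0.05. SEs were derived from the fold change and its F value. CPM are scaled by TMM, and log2 CPM used a prior count of 2. The test was checked on simulated data. Alternatives were no block, DESeq2 size factors, library totals, other filters, DESeq2 1.42.0, estimated counts rounded to whole numbers, and leaving out each animal. Limma 3.58.1 was also run on log2(TPM + 1) with a mean TPM of at least 1, and on log2(TPM + 0.1). The pseudocount of 1 understates the change of low genes. No 2 libraries of a group were alike within counting noise (chi-square over its degrees of freedom, 12.2 to 18.0).

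The members and lists were chosen with earlier results of these data known. The rule for named genes took all 10 members, from each other list up to 4 genes that passed or else the 2 with the smallest p, the 2 most abundant of each list of another cell type, and the 8 genes most like the members' mean and most like Cd74 (mean of at least 1 CPM). Of the genes this rule takes, 1 is not reported here. Coordinates are from GENCODE annotation of mm10 by symbol, and promoters from RefSeq.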

Additional observations from a re-analysis of the deposited data

How the results depend on the processing

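Over 107 refits of the 10 genes' log2 fold changes, 63 kept their sign and their side of the threshold and 4 passed it newly (Cd74 and H2-Aa, as given above). A further 25 kept their sign in fits that called at most 1 gene in all (no block, limma), and 7 in DESeq2, which gave them no adjusted p, so these say nothing of the threshold. The sign turned in 8, none of them called. H2-Eb1 stood at 0.051 with the estimated counts and at 0.020 and 0.035 with limma on log2(TPM + 1) and log2(TPM + 0.1). Leaving out each animal gave −0.096 to 0.058 for H2-Eb1 (0.00194 without animal 899), −0.00441 to 0.90 for Cd52 (lowest without animal 890), −0.043 to 0.38 for Cd207 (lowest without animal 892) and −0.075 to 0.25 for Fcer1g (lowest without animal 899). The cause was not tested. The number of the 10 genes called was 1 with no filter on low counts and 0 to 2 without each animal in turn.

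Without the replicate block, edgeR called 0 of 12310 genes instead of 426 (1537 at an unadjusted p below 0.05, none of them among the 10), and 0 genes of the other lists instead of 3. With no filter on low counts it called 987 genes and 5 in the lists. Limma called 1 gene with log2(TPM + 1), 0 with log2(TPM + 0.1) (1580 and 1205 at an unadjusted p below 0.05), and 0 in the lists with either. Without each animal in turn, 248 to 976 genes were called, 1 to 9 of them in the lists, and the median rho over the tested pairs was 0 to 0.8. The counts without animals 892 and 899 were 248 and 976. The counts over the other lists, the animal term, the median without each animal and the values without H2-Eb1 were added after seeing the data. Genes with few counts per library (Ciita, Cd52, Tyrobp and Fcer1g) are limited by depth.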
